A study of Mus musculus with 12 samples.

Results

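Expression in mouse cells given a Cre virus to delete AF10 together with a DOT1L inhibitor was compared with expression in cells that had received neither, both on day 4 of reprogramming. The members are the 2 Day4_creAF10_SGC libraries and the 2 Day4_fl_DMSO libraries, 4 of the 12 libraries of the series, and all 13936 genes of 20325 that passed a filter on low counts. All cells were mouse embryonic fibroblasts (MEFs) with floxed alleles of AF10 (gene Mllt10), a doxycycline-inducible OSKM cassette (Pou5f1, Sox2, Klf4 and Myc) and rtTA. Day4_creAF10_SGC cells, genotype AF10 -/-, were infected with the adenovirus Ad5-CMV-Cre and were reprogrammed in 5 µM SGC0946. Day4_fl_SGC cells, genotype AF10 fl/fl, had the empty adenovirus Ad5-CMV-Empty and the same inhibitor. Day4_creAF10_DMSO cells, genotype AF10 -/-, had the Cre virus and DMSO. Day4_fl_DMSO cells, genotype AF10 fl/fl, had the empty virus and DMSO. Reprogramming began 2 days after infection, and all 4 groups had 2 µg/mL doxycycline, a medium for embryonic stem cells that holds leukemia inhibitory factor, and DR4 feeder MEFs on gelatin. Each group has 2 libraries, and the ages of the embryos are not given in the sources used here. Feeder RNA may be present in every library and cannot be told apart from that of the reprogramming cells. The Cre virus and the inhibitor changed together in this comparison, and the series has no Cre-infected cells with normal AF10 alleles. The parts due to AF10 loss, Cre and SGC0946 therefore cannot be told apart from these 4 libraries.

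AF10 is a chromatin reader that binds DOT1L, a methyltransferase that marks the body of histone H3, and helps it to place its higher methylation states along transcribed genes. SGC0946 occupies the pocket of DOT1L for its methyl donor and so blocks the catalytic step of the same enzyme. In fibroblasts pushed towards pluripotency, the mark lies on genes of the fibroblast state, such as mesenchymal regulators, and DOT1L is known as a barrier to reprogramming. An early step of reprogramming is the mesenchymal-to-epithelial transition, in which matrix and mesenchymal genes give way to junction, keratin and adhesion genes.

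Total expected counts were 17531504 and 15135736 in Day4_creAF10_SGC replicates 1 and 2, and 16834238 and 21109210 in Day4_fl_DMSO replicates 1 and 2. Values below are CPM, read counts scaled to a common library size, so a value of a gene can be compared between libraries and not between genes. Libraries with the same number were taken to share a source of cells, although the labels do not name the sources. The Y-linked genes summed to 4035 to 4780 counts in every replicate 1 library and to 8 to 52 in every replicate 2 library. These sums tell the sex of the cells and do not by themselves show a shared source. The replicate number was a block in the test because libraries were paired by number, a choice made with earlier results of these data known. The test was edgeR's quasi-likelihood test with Benjamini-Hochberg adjustment over the 13936 genes. Genes with an adjusted p under 0.05 are said to have risen or fallen. The p-values set each change against a spread estimated over all 12 libraries of the series, MEFs included, and partly shared among genes. With 2 sources of cells, they do not measure the spread between many animals. The libraries carry fibroblast genes at high levels: the 43 fibroblast and matrix genes of the list used below summed to 28737 and 29169 CPM in Day4_creAF10_SGC, against 27216 and 28468 CPM in Day4_fl_DMSO.

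Of the 13936 genes, 1714 (12.3%) rose and 1289 (9.25%) fell in Day4_creAF10_SGC relative to Day4_fl_DMSO. The rises were larger: their median log2 change was 0.74, against -0.33 for the falls. Over 2-fold changes numbered 551 upward (3.95% of genes tested) and 53 downward (0.38%), and over 4-fold changes 99 upward and 9 downward. Of the genes that rose, 1713 moved upward in both sources, and 1288 of those that fell moved downward in both. Both Day4_creAF10_SGC libraries lay above both Day4_fl_DMSO libraries for 1571 of the genes that rose (91.7%), and below them for 1188 of those that fell (92.2%), where 25.5% of all genes did so in each direction and 51% in either. For most lists below, the counts without the block and the range with any 1 of the 4 libraries left out stand in parentheses, higher before lower. Each list's counts are to be read against the 12.3% of all genes that rose and the 9.25% that fell. Across genes, which are not independent replicates, the log2 changes of the 2 sources correlated at 0.632. The number of calls depended strongly on the block: without it 179 genes rose (1.28%) and 75 fell (0.538%), 1.82% of genes in all and all of them among the calls above, of which 113 and 10 were over 2-fold changed. Each library also mattered, since 1054 rose and 800 fell without Day4_fl_DMSO replicate 1, 1024 and 613 without Day4_fl_DMSO replicate 2, 1103 and 712 without Day4_creAF10_SGC replicate 1, and 1137 and 782 without Day4_creAF10_SGC replicate 2.

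**Figure D1:**
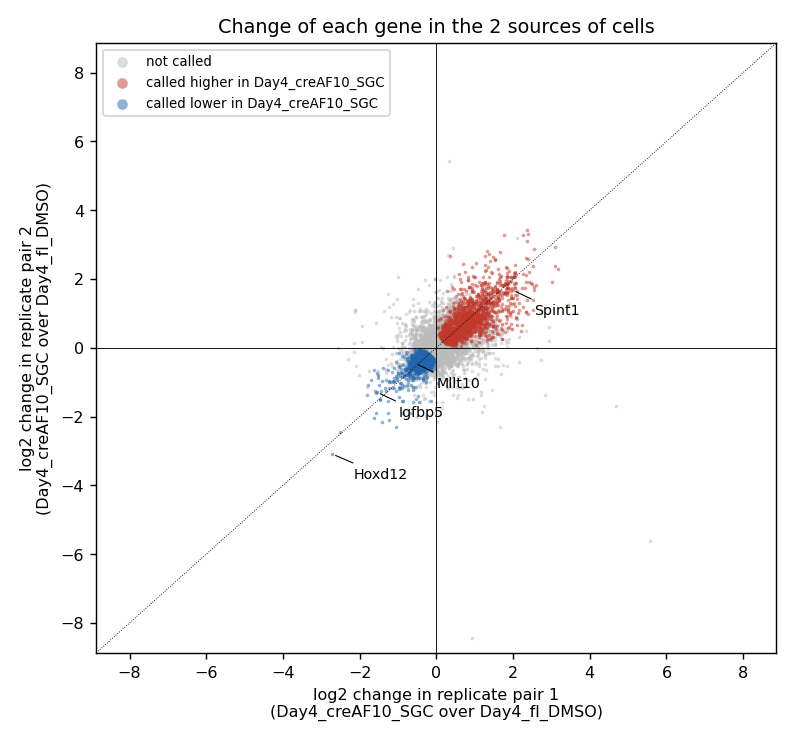
Log2 change of each of the 13936 genes (Day4_creAF10_SGC over Day4_fl_DMSO) in the pair of replicate 1 libraries (horizontal) and in the pair of replicate 2 libraries (vertical); red and blue points rose and fell, grey points were not called, and the dotted line marks equal change. Genes called in either direction lie along the dotted line, with more large changes upward (551 over 2-fold) than downward (53), and Hoxd12 lies far out below while Spint1 is among the larger rises.

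Mllt10, the targeted gene, was lower in both Day4_creAF10_SGC libraries and most of its reads remained. It had 41.7 and 40.5 CPM in Day4_creAF10_SGC, against 61.4 and 55.3 CPM in Day4_fl_DMSO. Mllt10's log2 change was -0.50 ± 0.08 (SE, adjusted p = 2.51e-05). The groups did not overlap, as was so for 51% of all genes. Day4_creAF10_DMSO stood at 44.2 and 41.8 CPM and Day4_fl_SGC at 54.1 and 55.7 CPM, so both groups with the Cre virus lay below both groups without it. The files hold 1 transcript of Mllt10, and reads from the deleted stretch cannot be told from the rest, so the remaining reads do not measure AF10 protein. Dot1l, the enzyme itself, had 68.1 and 59.7 CPM in Day4_creAF10_SGC and 59.9 and 52.7 CPM in Day4_fl_DMSO. Dot1l's log2 change was 0.18 ± 0.08 (SE, adjusted p = 0.0864), and its groups overlapped. Of the 9 genes of the DOT1L complex, all tested, 2 fell and none rose: Mllt10 and the WD-repeat protein gene Tbl1x, at -0.20 ± 0.07 (adjusted p = 0.0457, 0.24 without the block), whose call was lost with 3 of the 4 libraries left out (up to 0.567 without Day4_fl_DMSO replicate 2). The AF9 gene Mllt3 was at -0.11 ± 0.07 (adjusted p = 0.297), the ENL gene Mllt1 at -0.24 ± 0.09 (adjusted p = 0.0532) and the AF10 paralog Mllt6 at 0.08 ± 0.07 (adjusted p = 0.434). Of 17 genes of the super elongation complex, which releases paused RNA polymerase II and shares AF9 and ENL with the DOT1L complex, 0 were called by edgeR and 0 by DESeq2, 3 had an unadjusted p under 0.05, and the log2 changes lay between -0.29 and 0.19.

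The 4 reprogramming factors were each lower in Day4_creAF10_SGC, in both sources. Pou5f1, which encodes OCT4, had 90.7 and 93.5 CPM in Day4_creAF10_SGC, against 127 and 140.5 CPM in Day4_fl_DMSO. Pou5f1's log2 change was -0.54 ± 0.09 (SE, adjusted p = 8.52e-05, and 0.166 without the block). Klf4 had 153 and 142 CPM in Day4_creAF10_SGC, against 198 and 215 CPM in Day4_fl_DMSO. Klf4's log2 change was -0.49 ± 0.07 (SE, adjusted p = 8.98e-06, and 0.148 without the block). Their 2 libraries per group did not overlap, as was so for 51% of all genes. Myc had 255 and 257 CPM in Day4_creAF10_SGC, against 344 and 311 CPM in Day4_fl_DMSO. Myc's log2 change was -0.35 ± 0.07 (SE, adjusted p = 0.000256, and 0.292 without the block). Sox2 had 84.4 and 87.4 CPM in Day4_creAF10_SGC, against 113 and 102 CPM in Day4_fl_DMSO. Sox2's log2 change was -0.32 ± 0.08 (SE, adjusted p = 0.00251, and 0.448 without the block), and its call was lost without Day4_fl_DMSO replicate 1 (adjusted p = 0.181). The cassette and the cell's own genes are counted together here, so these values do not separate them. None of the 4 was called without the block.

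Most pluripotency genes were too low to test on day 4: 11 of 28 listed passed the filter, 2 rose and 1 fell (1 and 0 without the block, 2 and 0 to 1 with a library left out). The shares of the tested pluripotency genes were 18.2% risen and 9.09% fallen, against 12.3% and 9.25% of all genes. Klf2, a factor of naive pluripotency that is also a target of inflammatory and flow signals, had 9.43 and 8.25 CPM in Day4_creAF10_SGC, against 3.91 and 4.63 CPM in Day4_fl_DMSO. Klf2's log2 change was 1.04 ± 0.16 (SE, adjusted p = 2.51e-05). Gdf3, a TGF-beta family ligand of pluripotent cells, had 2.25 and 2.52 CPM in Day4_creAF10_SGC, against 0.747 and 1.05 CPM in Day4_fl_DMSO. Gdf3's log2 change was 1.38 ± 0.31 (SE, adjusted p = 0.00181, and 0.178 without the block). DESeq2 did not call Gdf3 (adjusted p = 0.0893). Its fold rests on few reads, with 81 counts over the 2 libraries of Day4_creAF10_SGC and 36 over those of Day4_fl_DMSO. Alpl, the alkaline phosphatase used as a stain for reprogrammed colonies and also a bone gene, had 8.88 and 7.49 CPM in Day4_creAF10_SGC, against 14.6 and 9.95 CPM in Day4_fl_DMSO. Alpl's log2 change was -0.58 ± 0.15 (SE, adjusted p = 0.00748, and 0.463 without the block), and its call was lost with 2 of the 4 libraries left out. Nanog, the core factor, had 1.97 and 1.51 CPM in Day4_creAF10_SGC and 0.977 and 0.55 CPM in Day4_fl_DMSO. Nanog's log2 change was 1.17 ± 1.07 (SE, adjusted p = 0.528), which did not pass the test. L1td1, which binds RNA in stem cells, was at 0.06 ± 0.08 (adjusted p = 0.612). Among the 16 tested surface markers of reprogramming 8 rose and 1 fell (2 and 0 without the block, 5 to 8 and 0 to 1 with a library left out). Icam1, which marks cells on the way to pluripotency, and Ly6a (Sca-1), which marks fibroblasts, were both among them, at 0.71 ± 0.08 (adjusted p = 3.62e-07, 0.169 without the block) and 0.67 ± 0.08 (adjusted p = 9.65e-07). Thy1, a fibroblast surface protein whose loss is an early sign of reprogramming, was at -0.02 ± 0.07 (adjusted p = 0.891), and Cd44 at -0.06 ± 0.06 (adjusted p = 0.601).

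The genes with the lowest p among those over 2-fold higher came from unlike functions. Aox3, an aldehyde oxidase, led them with 57.6 and 66 CPM in Day4_creAF10_SGC, against 16.6 and 17.7 CPM in Day4_fl_DMSO. Aox3's log2 change was 1.85 ± 0.09 (SE, adjusted p = 6.46e-14). Cp, the copper ferroxidase ceruloplasmin, had 56.6 and 69.6 CPM in Day4_creAF10_SGC, against 19.3 and 24.1 CPM in Day4_fl_DMSO. Cp's log2 change was 1.54 ± 0.08 (SE, adjusted p = 5.57e-13, and 0.143 without the block). For both genes the lowest Day4_creAF10_SGC library was more than 2-fold above the highest Day4_fl_DMSO library. Kif1a, a motor of vesicle transport best known from neurons, had 51.7 and 51.9 CPM in Day4_creAF10_SGC, against 14.4 and 17.1 CPM in Day4_fl_DMSO. Kif1a's log2 change was 1.71 ± 0.10 (SE, adjusted p = 7.3e-13). Col28a1, a collagen with von Willebrand factor domains, had 21.4 and 24 CPM in Day4_creAF10_SGC, against 5.17 and 5.27 CPM in Day4_fl_DMSO. Col28a1's log2 change was 2.12 ± 0.13 (SE, adjusted p = 3.04e-12). The secreted phosphoprotein osteopontin, Spp1, had 2566 and 3313 CPM in Day4_creAF10_SGC, against 1201 and 1511 CPM in Day4_fl_DMSO. Spp1's log2 change was 1.11 ± 0.07 (SE, adjusted p = 1.73e-11, and 0.0686 without the block). Xdh, the purine-degrading xanthine dehydrogenase, had 27.6 and 25.2 CPM in Day4_creAF10_SGC, against 8.21 and 7.2 CPM in Day4_fl_DMSO. Xdh's log2 change was 1.78 ± 0.12 (SE, adjusted p = 2.82e-11, and 0.193 without the block).

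Other leading rises were Htra3, a serine protease of the extracellular space, at 1.59 ± 0.11 (adjusted p = 3.81e-11, 0.33 without the block), the GDNF family receptor tyrosine kinase Ret at 1.26 ± 0.09 (adjusted p = 4.69e-11), and the lipid-transfer protein gene Esyt3 at 2.09 ± 0.15 (adjusted p = 8.02e-11). Htra3 differed between the sources, with 35 and 20.5 CPM in Day4_creAF10_SGC, against 11.9 and 6.56 CPM in Day4_fl_DMSO, and rose within each. Large changes among genes of at least 5 CPM on average included the lectin gene Chodl at 2.85 ± 0.20 (adjusted p = 2.29e-09, 0.0563 without the block), with 16.6 and 12.5 CPM in Day4_creAF10_SGC, against 3.16 and 1.05 CPM in Day4_fl_DMSO. The RIKEN genes 4833403I15Rik and 1810011O10Rik, to which no role is given here, were at 2.74 ± 0.19 (adjusted p = 4.69e-11, 0.275 without the block) and 1.86 ± 0.13 (adjusted p = 3.6e-11). Bzrap1, a synaptic scaffold gene, was at 2.26 ± 0.20 (adjusted p = 2.13e-09), the leak potassium channel gene Kcnk3 at 2.17 ± 0.19 (adjusted p = 2.18e-09, 0.12 without the block) and Pkhd1l1, a relative of the polycystic kidney and hepatic disease gene, at 2.14 ± 0.20 (adjusted p = 7.81e-09, 0.237 without the block).

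**Figure D2:**
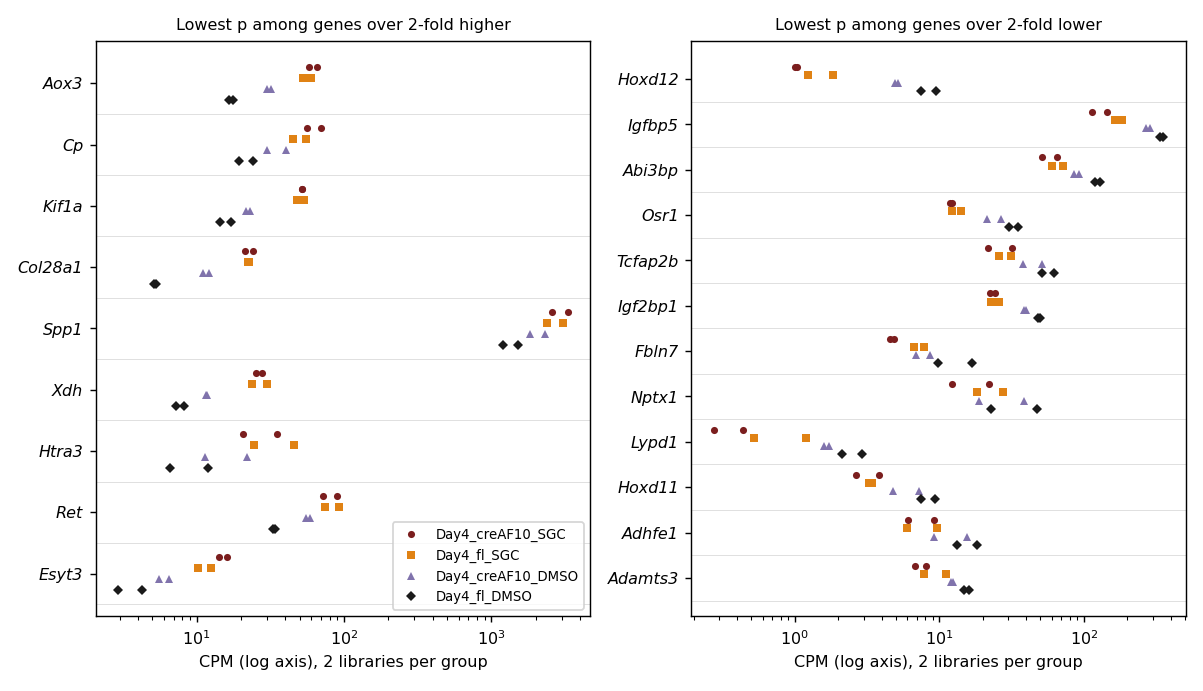
CPM on a log axis in the 2 libraries of each day 4 group for 9 of the genes with the lowest p among those over 2-fold higher (left) and the 12 with the lowest p among those over 2-fold lower (right) in Day4_creAF10_SGC than in Day4_fl_DMSO. In every gene shown both Day4_creAF10_SGC points lie on the same side of both Day4_fl_DMSO points, as for 51% of all genes. The 2 groups with 1 change each lie mostly between these points.

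Most of the epithelial genes tested rose. Of 30 genes listed, 20 passed the filter on low counts, and of these 16 rose and 0 fell, against 12.3% and 9.25% of all genes. The median log2 change of the 20 was 1.30, where that of all genes tested was -0.01. Their summed level was 438 and 456 CPM in Day4_creAF10_SGC, against 294 and 351 CPM in Day4_fl_DMSO. The counts were 4 and 0 without the block, 11 to 13 and 0 with a library left out.

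Spint1, the membrane inhibitor of matriptase and one of the 3 genes given as markers of this comparison, had 17.7 and 13.2 CPM in Day4_creAF10_SGC, against 4.37 and 4.03 CPM in Day4_fl_DMSO. Spint1's log2 change was 1.86 ± 0.15 (SE, adjusted p = 9.06e-10). Its levels in the other day 4 groups were 16.2 and 12.8 CPM in Day4_fl_SGC and 8.58 and 8.6 CPM in Day4_creAF10_DMSO. Spint2, another inhibitor of the same protease, had 27.6 and 25.7 CPM in Day4_creAF10_SGC, against 13.7 and 10.5 CPM in Day4_fl_DMSO. Spint2's log2 change was 1.15 ± 0.12 (SE, adjusted p = 2.58e-08). Cdh1, the epithelial cadherin, had 68.2 and 57 CPM in Day4_creAF10_SGC, against 28.8 and 18 CPM in Day4_fl_DMSO. Cdh1's log2 change was 1.44 ± 0.10 (SE, adjusted p = 6.79e-10, and 0.0563 without the block). All 3 genes were higher in both Day4_creAF10_SGC libraries than in either Day4_fl_DMSO library, as were 25.5% of all genes. Krt18, a keratin of simple epithelia, had 3.95 and 2.96 CPM in Day4_creAF10_SGC, against 0.574 and 0.779 CPM in Day4_fl_DMSO. Krt18's log2 change was 2.30 ± 0.29 (SE, adjusted p = 1.15e-06), and its counts are uncertain because near-identical copies of the gene exist. Epcam, the adhesion molecule, had 3.34 and 2.58 CPM in Day4_creAF10_SGC, against 0.46 and 0.642 CPM in Day4_fl_DMSO. Epcam's log2 change was 2.36 ± 0.33 (SE, adjusted p = 6.02e-06). Cldn3, a claudin of tight junctions, had 7.67 and 5.54 CPM in Day4_creAF10_SGC, against 3.1 and 1.38 CPM in Day4_fl_DMSO. Cldn3's log2 change was 1.60 ± 0.21 (SE, adjusted p = 1.83e-06, and 0.117 without the block). These last 3 were low in every library, so their folds rest on few reads. The epithelial splicing factor gene Esrp2 was at 1.73 ± 0.35 (adjusted p = 0.000649, 0.105 without the block) and the tight junction gene Ocln at 2.79 ± 0.70 (adjusted p = 0.00439, 0.104 without the block). The desmosomal genes Dsp, at 0.29 ± 0.09 (adjusted p = 0.0297, 0.821 without the block), and Jup, at 0.27 ± 0.08 (adjusted p = 0.0106, 0.619 without the block), changed less than the genes above. Perp, Tjp3, Ovol1 and Marveld3 were not called. The 10 listed genes left out for low counts include Grhl2, Cldn4, Cldn6, Cldn7 and Esrp1.

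Basal epithelial genes rose where they were called, with 41.7% of tested genes risen and none fallen, against 12.3% and 9.25% of all genes. Of 16 genes listed, 12 passed the filter on low counts, and of these 5 rose and 0 fell (3 and 0 without the block, 5 to 6 and 0 with a library left out). Trp63, the p63 factor of basal layers, had 44.5 and 51.7 CPM in Day4_creAF10_SGC, against 20.2 and 20.3 CPM in Day4_fl_DMSO. Trp63's log2 change was 1.25 ± 0.10 (SE, adjusted p = 6.12e-10). Itga6, an integrin that binds laminin, had 57.5 and 52.6 CPM in Day4_creAF10_SGC, against 35.6 and 32.6 CPM in Day4_fl_DMSO. Itga6's log2 change was 0.69 ± 0.08 (SE, adjusted p = 6.84e-07). Lama3, an alpha chain of epithelial laminin, had 46 and 52.5 CPM in Day4_creAF10_SGC, against 20.7 and 35.9 CPM in Day4_fl_DMSO. Lama3's log2 change was 0.82 ± 0.11 (SE, adjusted p = 1.25e-05, and 0.203 without the block). The desmosomal plakophilin gene Pkp1 was at 1.28 ± 0.21 (adjusted p = 3.74e-05, 0.102 without the block). The laminin beta chain gene Lamb3 was at 1.18 ± 0.57 (adjusted p = 0.147) and the basal keratin Krt14 at -0.75 ± 1.55 (adjusted p = 0.792), neither called. Krt5, Krt6a, Krt17 and Dsg3 did not pass the filter.

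The E-box CACCTG, and its reverse complement CAGGTG, is the letter pattern bound by the ZEB and SNAI repressors of epithelial genes. The 250 bases before the start site were searched on both strands in RefSeq promoters of build GRCm38.p6, which is not the mm9 build of the counts. Of the 16 epithelial genes that rose, 11 had entries with 12 promoters, and 6 of the 12 (50.0%) held an E-box. The share was 17.2% of all 32851 promoters and 15.7% of the 12675 of genes tested. It was 20.9% of the 1614 promoters of genes that rose and 14.4% of the 1282 of genes that fell. The 6 genes were Epcam, Krt18, Krt8, Lsr, Ocln and Spint2. A match is a run of letters and not a bound site. Epithelial genes that were not called were not searched as a set, so a share particular to those that rose was not tested. The Epcam and Spint2 windows are printed 5′ to 3′ because they held more than 1 E-box, which is in capitals.
Epcam, chr17:87635729-87635978, plus strand, E-boxes that begin 187 and 19 bases before the start: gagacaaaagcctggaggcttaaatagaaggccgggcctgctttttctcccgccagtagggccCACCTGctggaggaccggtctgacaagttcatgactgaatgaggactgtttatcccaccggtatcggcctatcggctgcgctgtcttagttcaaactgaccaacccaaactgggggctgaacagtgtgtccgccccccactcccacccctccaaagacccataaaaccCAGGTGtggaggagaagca
Spint2, chr7:29281978-29282227, minus strand, E-boxes that begin 74, 55 and 9 bases before the start: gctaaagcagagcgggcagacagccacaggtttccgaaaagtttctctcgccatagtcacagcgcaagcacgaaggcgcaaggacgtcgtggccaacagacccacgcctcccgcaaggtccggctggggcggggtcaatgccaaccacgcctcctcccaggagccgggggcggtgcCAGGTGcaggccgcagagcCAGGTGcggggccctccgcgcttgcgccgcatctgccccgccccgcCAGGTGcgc

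The transcription factors of the opposite, mesenchymal state moved little. Of 11 such factors, all tested, 3 fell and none rose (0 and 0 without the block, 0 and 2 to 3 with a library left out), and all 11 log2 changes were below 0. Tcf4, an E protein, had 248 and 271 CPM in Day4_creAF10_SGC, against 325 and 339 CPM in Day4_fl_DMSO. Tcf4's log2 change was -0.36 ± 0.07 (SE, adjusted p = 0.000339, and 0.067 without the block). Foxc1, a forkhead factor of mesenchyme, had 33.4 and 46 CPM in Day4_creAF10_SGC, against 46.8 and 58 CPM in Day4_fl_DMSO. Foxc1's log2 change was -0.41 ± 0.08 (SE, adjusted p = 0.000291, and 0.665 without the block). Zeb1, the repressor of Cdh1, had 108 and 116 CPM in Day4_creAF10_SGC, against 127 and 141 CPM in Day4_fl_DMSO. Zeb1's log2 change was -0.26 ± 0.07 (SE, adjusted p = 0.00418, and 0.176 without the block), and its call was lost with 2 of the 4 libraries left out (up to 0.0591 without Day4_creAF10_SGC replicate 2). Zeb2 was at -0.02 ± 0.08 (adjusted p = 0.919), Snai1 at -0.05 ± 0.15 (adjusted p = 0.867), Snai2 at -0.17 ± 0.08 (adjusted p = 0.132), Twist1 at -0.05 ± 0.07 (adjusted p = 0.639) and Prrx1 at -0.05 ± 0.07 (adjusted p = 0.701), none of them called.

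On the list of chemokines, cytokines and their regulators, 66.7% of tested genes rose and 9.09% fell, against 12.3% and 9.25% of all genes. Of 38 genes listed, 33 passed the filter on low counts, and of these 22 rose and 3 fell (2 and 0 without the block, 18 to 20 and 1 to 2 with a library left out), with a median log2 change of 0.68. Nfkbia, the inhibitor of NF-kappaB that NF-kappaB itself induces, had 133 and 134 CPM in Day4_creAF10_SGC, against 71.7 and 66.7 CPM in Day4_fl_DMSO. Nfkbia's log2 change was 0.95 ± 0.07 (SE, adjusted p = 1.63e-10). Ccl2, the chemokine that draws monocytes, had 102 and 103 CPM in Day4_creAF10_SGC, against 34.1 and 33.3 CPM in Day4_fl_DMSO. Ccl2's log2 change was 1.60 ± 0.10 (SE, adjusted p = 7.84e-10, and 0.253 without the block). Cxcl16, a transmembrane chemokine, had 14 and 12.7 CPM in Day4_creAF10_SGC, against 4.65 and 3.85 CPM in Day4_fl_DMSO. Cxcl16's log2 change was 1.66 ± 0.15 (SE, adjusted p = 8.02e-09). In each of these genes the 2 libraries of a group were close and the groups lay far apart. Il33, an alarmin of the interleukin 1 family, had 9.43 and 11.6 CPM in Day4_creAF10_SGC, against 3.33 and 3.48 CPM in Day4_fl_DMSO. Il33's log2 change was 1.62 ± 0.16 (SE, adjusted p = 1.28e-08, and 0.276 without the block). Ptges, a prostaglandin E synthase, had 45.6 and 32.4 CPM in Day4_creAF10_SGC, against 24.6 and 19.5 CPM in Day4_fl_DMSO. Ptges's log2 change was 0.81 ± 0.09 (SE, adjusted p = 8.61e-08, and 0.122 without the block). The 3 genes that fell were Vcam1, an adhesion molecule for leukocytes, at -0.38 ± 0.07 (adjusted p = 0.000295, 0.259 without the block), Il1rn at -0.25 ± 0.08 (adjusted p = 0.0181, 0.871 without the block) and Cxcl15 at -0.52 ± 0.16 (adjusted p = 0.0201, 0.216 without the block). The stromal chemokine Cxcl12 was at -0.18 ± 0.07 (adjusted p = 0.065) and not called. Il1a, Il1b, Tnf, Csf2 and Csf3 did not pass the filter.

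Acute phase and complement genes showed the same direction, with 71.4% of tested genes risen and none fallen, against 12.3% and 9.25% of all genes. Of 19 genes listed, 14 passed the filter on low counts, and of these 10 rose and 0 fell (2 and 0 without the block, 8 to 10 and 0 with a library left out). Serpina3g, a protease inhibitor of a mouse family with near-identical members whose reads may be divided among them, had 38.5 and 37.5 CPM in Day4_creAF10_SGC, against 16.1 and 13 CPM in Day4_fl_DMSO. Serpina3g's log2 change was 1.39 ± 0.11 (SE, adjusted p = 3.29e-10, and 0.0643 without the block). Lcn2, which binds bacterial iron carriers, had 12.2 and 14.7 CPM in Day4_creAF10_SGC, against 4.71 and 5.78 CPM in Day4_fl_DMSO. Lcn2's log2 change was 1.35 ± 0.14 (SE, adjusted p = 5.64e-08). Ptx3, a pattern recognition pentraxin, had 133 and 128 CPM in Day4_creAF10_SGC, against 85.8 and 87.8 CPM in Day4_fl_DMSO. Ptx3's log2 change was 0.59 ± 0.07 (SE, adjusted p = 5.36e-07). The 3 genes did not overlap between the groups, as was so for 51% of all genes. C3, the central complement protein, had 42.6 and 23.7 CPM in Day4_creAF10_SGC, against 27.2 and 10.2 CPM in Day4_fl_DMSO. C3's log2 change was 0.90 ± 0.12 (SE, adjusted p = 1.57e-06, and 0.706 without the block), and its groups overlapped although it rose within each source.

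Immediate early genes, which respond to growth factors and stress within minutes, were mostly called higher, while their level differed as much between sources as between groups. Of 21 genes listed and tested, 14 rose and none fell (1 and 0 without the block, 12 to 14 and 0 with a library left out), and all 21 log2 changes were above 0. Their summed level was 2004 and 3320.3 CPM in Day4_creAF10_SGC, against 1256 and 2478 CPM in Day4_fl_DMSO, higher in the replicate 2 library of each group. Dusp1, a phosphatase that switches off stress kinases, had 96.7 and 179 CPM in Day4_creAF10_SGC, against 61.2 and 113 CPM in Day4_fl_DMSO. Dusp1's log2 change was 0.66 ± 0.07 (SE, adjusted p = 4.25e-08, and 0.562 without the block), and the groups overlapped. Btg2, an antiproliferative gene, showed the same layout with 216 and 351 CPM in Day4_creAF10_SGC, against 133 and 217 CPM in Day4_fl_DMSO. Btg2's log2 change was 0.69 ± 0.08 (SE, adjusted p = 1.67e-07, and 0.435 without the block). Ier3, an early response gene, had 77 and 89.3 CPM in Day4_creAF10_SGC, against 42.9 and 51.9 CPM in Day4_fl_DMSO. Its groups did not overlap, as was so for 51% of all genes. Ier3's log2 change was 0.81 ± 0.08 (SE, adjusted p = 3.58e-08, and 0.0673 without the block). Ier5 had 90.6 and 81.1 CPM in Day4_creAF10_SGC, against 52.8 and 51.8 CPM in Day4_fl_DMSO. Ier5's log2 change was 0.71 ± 0.08 (SE, adjusted p = 1.13e-07), and it was the member called without the block. Atf3, a stress-induced factor, had 7.18 and 11 CPM in Day4_creAF10_SGC, against 3.1 and 3.21 CPM in Day4_fl_DMSO. Atf3's log2 change was 1.53 ± 0.17 (SE, adjusted p = 1.42e-07, and 0.105 without the block). Fos was at 0.54 ± 0.09 (adjusted p = 4.8e-05, 0.845 without the block), while Jun at 0.04 ± 0.09 (adjusted p = 0.805) and Egr1 at 0.56 ± 0.17 (adjusted p = 0.0755) were not called.

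**Figure D3:**
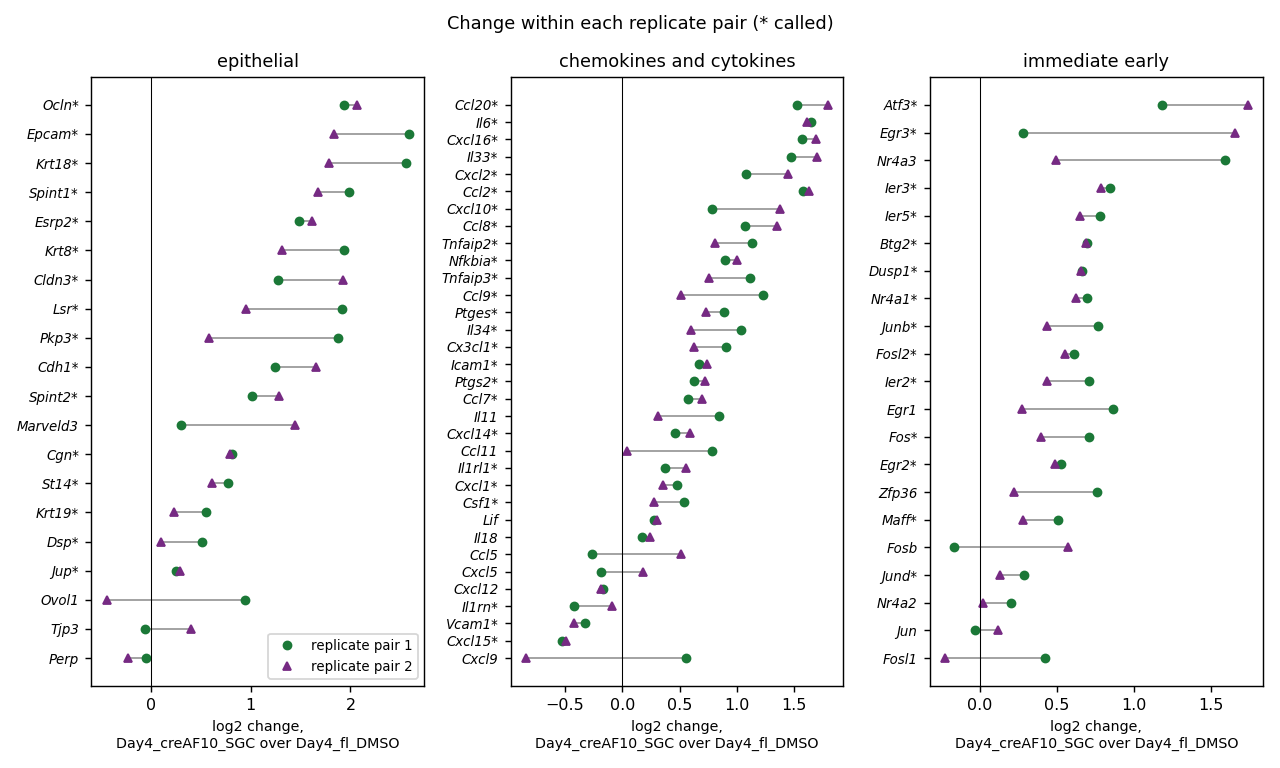
Log2 change within each replicate pair (Day4_creAF10_SGC over Day4_fl_DMSO) for the tested epithelial, chemokine and cytokine, and immediate early genes, with an asterisk on called genes and a line joining the 2 pairs. Most asterisked genes lie right of 0 in both pairs, and Pkp3, Egr3 and Ccl9 are examples whose 2 pairs lie far apart.

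Secreted proteases that cut matrix were among the genes that rose. On the list that holds them, 41.4% of tested genes rose and 10.3% fell, against 12.3% and 9.25% of all genes. Of 31 genes listed, 29 were tested, 12 rose and 3 fell (1 and 0 without the block, 9 and 1 with a library left out). Plau, the urokinase plasminogen activator, had 42.2 and 68.4 CPM in Day4_creAF10_SGC, against 16.4 and 27.7 CPM in Day4_fl_DMSO. Plau's log2 change was 1.33 ± 0.10 (SE, adjusted p = 9.24e-11, and 0.157 without the block). It rose within each source, and the replicate 2 library was the higher of each group. Mmp3, the stromelysin of inflamed fibroblasts, had 408 and 507 CPM in Day4_creAF10_SGC, against 219 and 239 CPM in Day4_fl_DMSO. Mmp3's log2 change was 0.99 ± 0.08 (SE, adjusted p = 3.26e-10, and 0.166 without the block). Mmp10, a close relative of Mmp3, had 1.7 and 2.39 CPM in Day4_creAF10_SGC, against 0.23 and 0.138 CPM in Day4_fl_DMSO. Mmp10's log2 change was 3.50 ± 0.46 (SE, adjusted p = 1.8e-06), from very few reads in Day4_fl_DMSO. Mmp11 had 73.5 and 58.1 CPM in Day4_creAF10_SGC, against 54.5 and 45.5 CPM in Day4_fl_DMSO. Mmp11's log2 change was 0.39 ± 0.07 (SE, adjusted p = 0.000288, and 0.387 without the block). Of the tissue inhibitors of metalloproteinases, Timp1 rose by 0.31 (adjusted p = 0.00571, and 0.173 without the block), Timp2 fell, at -0.30 ± 0.07 (adjusted p = 0.00206, 0.401 without the block), with its call lost with 2 of the 4 libraries left out, and Timp3 at -0.05 ± 0.07 (adjusted p = 0.694) was not called.

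AP-1, the dimer of FOS and JUN proteins, is known to bind TGANTCA, and the same 250 bases were searched for it. Of the 15 protease and inhibitor genes called (12 risen, 3 fallen), 10 had entries with 11 promoters, of which 4 (36.4%) held the pattern. The share was 6.75% of all 32851 promoters and 4.8% of those of genes tested. It was 7.19% of those of genes that rose and 4.13% of those of genes that fell. The 4 genes were Mmp3, Mmp10, Mmp13 and Plaur. Of 25 promoters of called chemokine and cytokine genes, 5 (20.0%) held it, and of 18 promoters of called immediate early genes none did. Members of these lists that were not called were not searched as a set, so a share particular to the called ones was not tested. The windows of the neighbouring genes Mmp3 and Mmp10 are printed because they let the position of the match, in capitals, be compared.
Mmp3, chr9:7445572-7445821, plus strand, match that begins 46 bases before the start: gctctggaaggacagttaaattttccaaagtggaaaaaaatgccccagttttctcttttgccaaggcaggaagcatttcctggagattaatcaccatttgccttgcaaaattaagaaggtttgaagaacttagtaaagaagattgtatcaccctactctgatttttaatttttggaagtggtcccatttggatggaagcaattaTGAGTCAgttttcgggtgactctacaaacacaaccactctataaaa
Mmp10, chr9:7502092-7502341, plus strand, match that begins 63 bases before the start: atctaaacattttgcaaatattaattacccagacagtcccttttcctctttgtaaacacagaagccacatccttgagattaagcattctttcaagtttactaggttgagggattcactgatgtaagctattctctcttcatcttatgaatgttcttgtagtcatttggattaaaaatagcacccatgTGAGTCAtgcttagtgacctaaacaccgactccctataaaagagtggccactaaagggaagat

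Hox genes record position along the body and limb axes in fibroblasts, and those called were lower. Of 39 listed, 35 were tested, 17 fell and none rose, against 9.25% and 12.3% of all genes (0 and 1 without the block, 0 to 1 and 12 with a library left out). The median log2 change was -0.45, and 30 of the 35 were below 0. Hoxd12, the second of the 3 marker genes and a factor of the distal limb, had 1.04 and 1.01 CPM in Day4_creAF10_SGC, against 7.47 and 9.44 CPM in Day4_fl_DMSO. Hoxd12's log2 change was -3.03 ± 0.21 (SE, adjusted p = 4.69e-11). Day4_fl_SGC stood at 1.24 and 1.84 CPM and Day4_creAF10_DMSO at 4.95 and 5.14 CPM. It was the only Hox gene called without the block. Its neighbours changed less: Hoxd11 had 2.63 and 3.84 CPM in Day4_creAF10_SGC, against 7.41 and 9.4 CPM in Day4_fl_DMSO. Hoxd11's log2 change was -1.38 ± 0.17 (SE, adjusted p = 6.64e-07, and 0.14 without the block). Hoxd13 had 61.8 and 87.3 CPM in Day4_creAF10_SGC, against 103 and 131 CPM in Day4_fl_DMSO. Hoxd13's log2 change was -0.66 ± 0.07 (SE, adjusted p = 6.81e-08, and 0.497 without the block). Hoxd10 had 8.61 and 10.6 CPM in Day4_creAF10_SGC, against 14.1 and 18.7 CPM in Day4_fl_DMSO. Hoxd10's log2 change was -0.76 ± 0.12 (SE, adjusted p = 4.23e-05, and 0.361 without the block). Along the Hoxd cluster, Hoxd9 at -0.16 ± 0.12 (adjusted p = 0.395), Hoxd8 at -0.08 ± 0.14 (adjusted p = 0.736) and Hoxd4 at -0.26 ± 0.13 (adjusted p = 0.169) were not called, while Hoxd3 was called at -0.62 ± 0.19 (adjusted p = 0.017, 0.696 without the block).

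In the Hoxa cluster, Hoxa10 had 65.8 and 73.4 CPM in Day4_creAF10_SGC, against 94 and 99.1 CPM in Day4_fl_DMSO. Hoxa10's log2 change was -0.47 ± 0.08 (SE, adjusted p = 0.000145, and 0.302 without the block). Hoxa9, Hoxa11 and Hoxa13 were at -0.10 ± 0.10 (adjusted p = 0.522), -0.17 ± 0.09 (adjusted p = 0.191) and -0.38 ± 0.14 (adjusted p = 0.0534), none called. In the Hoxb cluster, Hoxb8 had 1.15 and 0.567 CPM in Day4_creAF10_SGC, against 2.93 and 1.88 CPM in Day4_fl_DMSO. Hoxb8's log2 change was -1.50 ± 0.29 (SE, adjusted p = 0.000301, and 0.201 without the block). Hoxb6 had 1.1 and 0.692 CPM in Day4_creAF10_SGC, against 3.62 and 1.15 CPM in Day4_fl_DMSO. Hoxb6's log2 change was -1.37 ± 0.30 (SE, adjusted p = 0.00133, and 0.316 without the block). In the Hoxc cluster, Hoxc6 had 6.74 and 4.66 CPM in Day4_creAF10_SGC, against 12.3 and 8.11 CPM in Day4_fl_DMSO. Hoxc6's log2 change was -0.83 ± 0.15 (SE, adjusted p = 0.000152, and 0.255 without the block). Hoxc10 had 6.63 and 5.73 CPM in Day4_creAF10_SGC, against 9.94 and 10.6 CPM in Day4_fl_DMSO. Hoxc10's log2 change was -0.74 ± 0.15 (SE, adjusted p = 0.000397, and 0.175 without the block). These Hoxb and Hoxc genes were named after their values were seen, to describe each cluster. Of the Hox cofactors, Meis1 and Meis2 fell at -0.61 ± 0.14 (adjusted p = 0.00172, 0.638 without the block) and -0.37 ± 0.10 (adjusted p = 0.00589, 0.508 without the block), and Pknox2 and Meis3 rose at 0.76 ± 0.15 (adjusted p = 0.000548, 0.174 without the block) and 0.48 ± 0.12 (adjusted p = 0.00332, 0.326 without the block). Each of these 4 calls was lost with 1 or 2 of the 4 libraries left out.

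**Figure D4:**
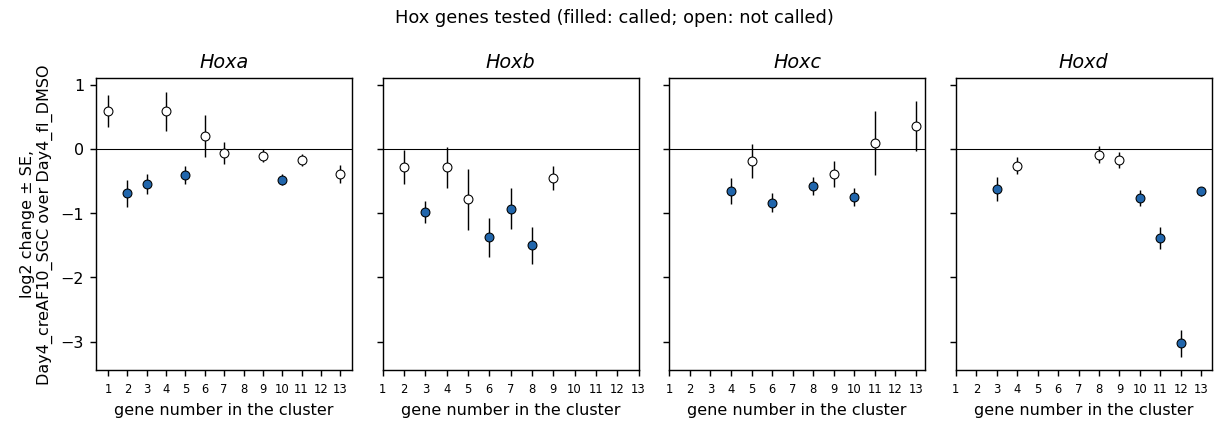
Log2 change ± SE (Day4_creAF10_SGC over Day4_fl_DMSO, 2 libraries per group) of the 35 Hox genes tested, by cluster and by the number in the gene's name; filled points fell, open points were not called. Hoxd12 lies at -3.03 ± 0.21, far below the other Hoxd genes, and called genes stand beside uncalled ones within each cluster.

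Transcription factors of limb and mesenchyme fell more often than they rose, at 43.6% and 5.13% of tested genes, against 9.25% and 12.3% of all genes. Of 40 genes listed, 39 passed the filter on low counts, and of these 2 rose and 17 fell (0 and 4 without the block, 0 to 1 and 13 to 16 with a library left out). Osr1, an odd-skipped factor of connective tissue progenitors, had 11.8 and 12.3 CPM in Day4_creAF10_SGC, against 35.2 and 30.5 CPM in Day4_fl_DMSO. Osr1's log2 change was -1.45 ± 0.11 (SE, adjusted p = 1.22e-10). Nfix, a nuclear factor I protein, had 72.4 and 71 CPM in Day4_creAF10_SGC, against 130.0 and 155 CPM in Day4_fl_DMSO. Nfix's log2 change was -0.99 ± 0.07 (SE, adjusted p = 1.98e-10). Tbx15, a T-box factor of the skeleton, had 160.0 and 161 CPM in Day4_creAF10_SGC, against 244 and 241 CPM in Day4_fl_DMSO. Tbx15's log2 change was -0.60 ± 0.06 (SE, adjusted p = 9.56e-08). The 2 libraries of each group lay close together in all 3. Osr2 had 57.1 and 44.4 CPM in Day4_creAF10_SGC, against 92 and 66.1 CPM in Day4_fl_DMSO. Osr2's log2 change was -0.63 ± 0.07 (SE, adjusted p = 3.44e-07, and 0.209 without the block). Hic1, a repressor of mesenchymal progenitors, had 8.88 and 9.13 CPM in Day4_creAF10_SGC, against 17.9 and 15.7 CPM in Day4_fl_DMSO. Hic1's log2 change was -0.90 ± 0.11 (SE, adjusted p = 1.04e-06, and 0.306 without the block). The forelimb factor Tbx5 and the hindlimb factors Tbx4 and Pitx1 were at -0.61 ± 0.10 (adjusted p = 3.91e-05, 0.341 without the block), -0.60 ± 0.08 (adjusted p = 3.15e-06, 0.331 without the block) and -0.40 ± 0.10 (adjusted p = 0.00356, 0.56 without the block). In the other direction, Runx1, best known from blood formation, had 46.8 and 41.5 CPM in Day4_creAF10_SGC, against 37.2 and 26.8 CPM in Day4_fl_DMSO. Runx1's log2 change was 0.48 ± 0.10 (SE, adjusted p = 0.00124, and 0.52 without the block), and its call was lost with 2 of the 4 libraries left out. Twist1 and Prrx1, given above, and Msx1 at -0.20 ± 0.08 (adjusted p = 0.0852) were not called.

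The lowest p among over 2-fold falls belonged to Igfbp5, the third marker gene, a secreted protein that binds insulin-like growth factors. It had 114 and 145 CPM in Day4_creAF10_SGC, against 335 and 356 CPM in Day4_fl_DMSO. Igfbp5's log2 change was -1.42 ± 0.08 (SE, adjusted p = 6.31e-13), with 165 and 184 CPM in Day4_fl_SGC and 268 and 287 CPM in Day4_creAF10_DMSO. Abi3bp, a matrix protein of fibroblasts, had 51.1 and 65.6 CPM in Day4_creAF10_SGC, against 120.2 and 129.6 CPM in Day4_fl_DMSO. Abi3bp's log2 change was -1.11 ± 0.07 (SE, adjusted p = 3.6e-11). Tcfap2b, the AP-2 beta factor of neural crest and kidney, had 21.8 and 31.6 CPM in Day4_creAF10_SGC, against 51.2 and 61.9 CPM in Day4_fl_DMSO. Tcfap2b's log2 change was -1.09 ± 0.09 (SE, adjusted p = 3.91e-10, and 0.24 without the block). In these genes the highest Day4_creAF10_SGC library lay well below the lowest Day4_fl_DMSO library. Fbln7, a fibulin, had 4.82 and 4.53 CPM in Day4_creAF10_SGC, against 16.8 and 9.72 CPM in Day4_fl_DMSO. Fbln7's log2 change was -1.48 ± 0.15 (SE, adjusted p = 4.25e-08). Nptx1, a neuronal pentraxin, had 12.2 and 22.2 CPM in Day4_creAF10_SGC, against 22.7 and 47.2 CPM in Day4_fl_DMSO. Nptx1's log2 change was -1.01 ± 0.10 (SE, adjusted p = 4.54e-08, and 0.376 without the block), with replicate 2 the higher in each group. Lypd1, a GPI-anchored protein, had 0.274 and 0.441 CPM in Day4_creAF10_SGC, against 2.13 and 2.93 CPM in Day4_fl_DMSO. Lypd1's log2 change was -2.80 ± 0.32 (SE, adjusted p = 2.67e-07). The enzyme gene Adhfe1 was at -1.05 ± 0.13 (adjusted p = 6.75e-07, 0.222 without the block) and the procollagen protease gene Adamts3 at -1.05 ± 0.13 (adjusted p = 8.33e-07).

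Growth factor genes of the insulin-like family and fetal RNA-binding genes fell more often than they rose. Of 23 genes listed, 21 passed the filter on low counts, and of these 4 rose and 8 fell (0 and 2 without the block, 2 to 3 and 7 to 8 with a library left out). Igf2, the fetal growth factor, had 388 and 587 CPM in Day4_creAF10_SGC, against 796 and 1118 CPM in Day4_fl_DMSO. Igf2's log2 change was -0.98 ± 0.08 (SE, adjusted p = 4.45e-10, and 0.17 without the block). Igf2bp1, an mRNA-binding protein of fetal tissue, had 24.4 and 22.3 CPM in Day4_creAF10_SGC, against 48.1 and 49.6 CPM in Day4_fl_DMSO. Igf2bp1's log2 change was -1.06 ± 0.09 (SE, adjusted p = 1.18e-09). Grb10, an imprinted adaptor that restrains insulin and IGF receptors, had 586 and 464 CPM in Day4_creAF10_SGC, against 852 and 772 CPM in Day4_fl_DMSO. Grb10's log2 change was -0.64 ± 0.07 (SE, adjusted p = 1.83e-07, and 0.0605 without the block). Other binding proteins went the other way, and Igfbp6 had 32 and 20.4 CPM in Day4_creAF10_SGC, against 23.5 and 12.4 CPM in Day4_fl_DMSO. Igfbp6's log2 change was 0.56 ± 0.10 (SE, adjusted p = 0.000162, and 0.756 without the block), with overlapping groups. Igfbp3 at 0.03 ± 0.07 (adjusted p = 0.817) and Hmga2 at 0.01 ± 0.07 (adjusted p = 0.938) were not called.

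Matrix genes divided evenly. Of 43 genes listed, 43 passed the filter on low counts, and of these 12 rose and 12 fell (0 and 1 without the block, 6 to 11 and 9 to 10 with a library left out), with a median log2 change of 0.04. Loxl4, a collagen cross-linking oxidase, had 68.3 and 61.3 CPM in Day4_creAF10_SGC, against 42.7 and 38.1 CPM in Day4_fl_DMSO. Loxl4's log2 change was 0.68 ± 0.08 (SE, adjusted p = 1.83e-07, and 0.133 without the block). S100a4, the fibroblast calcium-binding protein, had 749.8 and 822 CPM in Day4_creAF10_SGC, against 411 and 633 CPM in Day4_fl_DMSO. S100a4's log2 change was 0.61 ± 0.09 (SE, adjusted p = 3.18e-05, and 0.224 without the block). In the other direction, the matricellular gene Postn had 70.0 and 57.2 CPM in Day4_creAF10_SGC, against 120.5 and 85.1 CPM in Day4_fl_DMSO. Postn's log2 change was -0.68 ± 0.08 (SE, adjusted p = 6.62e-07, and 0.327 without the block). The proteoglycan gene Vcan had 184 and 208 CPM in Day4_creAF10_SGC, against 256 and 348 CPM in Day4_fl_DMSO. Vcan's log2 change was -0.62 ± 0.08 (SE, adjusted p = 6.62e-07, and 0.481 without the block). Common fibroblast genes did not pass the test, with Dcn at 0.01 ± 0.08 (adjusted p = 0.967), Pdgfra at 0.03 ± 0.07 (adjusted p = 0.843), Vim at -0.11 ± 0.07 (adjusted p = 0.306) and Fn1 at 0.18 ± 0.08 (adjusted p = 0.0957). In bulk libraries, fewer cells of a type and less RNA per cell cannot be told apart. Of 29 collagen genes tested of 32 listed, 9 rose and 2 fell (1 and 0 without the block, 7 to 8 and 1 with a library left out). Minor collagens rose most: besides Col28a1, Col14a1 had 7.51 and 10.7 CPM in Day4_creAF10_SGC, against 2.24 and 3.35 CPM in Day4_fl_DMSO. Col14a1's log2 change was 1.70 ± 0.15 (SE, adjusted p = 1.72e-09, and 0.111 without the block). Col4a6 was at 1.02 ± 0.13 (adjusted p = 2.1e-06, 0.0597 without the block) and Col7a1, the anchoring fibril collagen under epithelia, at 1.02 ± 0.16 (adjusted p = 2.17e-05, 0.388 without the block). The abundant Col3a1 had 2758 and 2506 CPM in Day4_creAF10_SGC, against 3439.7 and 3205 CPM in Day4_fl_DMSO. Col3a1's log2 change was -0.34 ± 0.07 (SE, adjusted p = 0.000687, and 0.458 without the block). Col1a1 and Col1a2 at 0.12 ± 0.08 (adjusted p = 0.33) and -0.03 ± 0.07 (adjusted p = 0.816) were not called. Of 17 contractile genes 4 rose and 2 fell (0 and 0 without the block, 1 to 3 and 0 to 2 with a library left out), with the myosin light chain gene Myl9 at 0.47 ± 0.08 (adjusted p = 8.52e-05, 0.136 without the block) and Tagln at -0.00 ± 0.07 (adjusted p = 0.975), which was not called.

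Signalling genes changed in both directions. Of 42 TGF-beta and BMP genes 11 rose and 8 fell (1 and 1 without the block, 7 to 11 and 3 to 6 with a library left out). Ligands and secreted antagonists were among the rises and receptors among the falls. Tgfb1 had 20.6 and 18.5 CPM in Day4_creAF10_SGC, against 9.88 and 9.58 CPM in Day4_fl_DMSO. Tgfb1's log2 change was 1.00 ± 0.11 (SE, adjusted p = 2.23e-07, and 0.11 without the block). The inhibin beta chain gene Inhbb had 48.1 and 48.7 CPM in Day4_creAF10_SGC, against 28.4 and 30.2 CPM in Day4_fl_DMSO. Inhbb's log2 change was 0.72 ± 0.08 (SE, adjusted p = 3.2e-07, and 0.295 without the block), and the activin antagonist gene Fst was at 0.51 ± 0.07 (adjusted p = 6.64e-06). The receptor genes Tgfbr2 and Bmpr1a were at -0.42 ± 0.07 (adjusted p = 4.52e-05, 0.167 without the block) and -0.40 ± 0.07 (adjusted p = 8.33e-05), and Bmpr2 and Tgfbr1, named after their values were seen, at -0.51 ± 0.10 (adjusted p = 0.000355, 0.0742 without the block) and -0.22 ± 0.07 (adjusted p = 0.0349, 0.584 without the block), while the receptor gene Acvrl1 rose at 0.62 ± 0.12 (adjusted p = 0.000312, 0.408 without the block). Of 40 genes on the WNT list, 37 passed the filter, and of these 12 rose and 6 fell (1 and 2 without the block, 6 to 11 and 5 to 6 with a library left out). Wnt16 had 52.4 and 67.9 CPM in Day4_creAF10_SGC, against 26.5 and 35.9 CPM in Day4_fl_DMSO. Wnt16's log2 change was 0.94 ± 0.09 (SE, adjusted p = 9.55e-09, and 0.148 without the block). The nuclear effectors Tcf7 and Lef1, which bind beta-catenin, rose at 1.97 ± 0.25 (adjusted p = 8.72e-07) and 1.34 ± 0.19 (adjusted p = 4.45e-06, 0.0549 without the block), and the feedback inhibitor Nkd2 at 1.52 ± 0.15 (adjusted p = 1.88e-08, 0.338 without the block). Axin2, the general target gene of the pathway, was at 0.33 ± 0.13 (adjusted p = 0.0662) and not called. Wnt5a, a ligand of the branch without beta-catenin, had 50.3 and 52.5 CPM in Day4_creAF10_SGC, against 76.1 and 75.3 CPM in Day4_fl_DMSO. Wnt5a's log2 change was -0.56 ± 0.07 (SE, adjusted p = 1.59e-06).

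Of 24 FGF and ERK feedback genes tested of 26 listed, 5 rose and 6 fell (0 and 1 without the block, 2 to 4 and 3 to 5 with a library left out). Spry2, a feedback inhibitor of receptor tyrosine kinases, had 57.1 and 63.5 CPM in Day4_creAF10_SGC, against 79.6 and 89.7 CPM in Day4_fl_DMSO. Spry2's log2 change was -0.49 ± 0.07 (SE, adjusted p = 7.05e-06). Etv5, a factor induced by FGF signals, was at -0.41 ± 0.07 (adjusted p = 0.000128, 0.607 without the block) and the receptor gene Fgfr2 at -0.37 ± 0.07 (adjusted p = 0.000385, 0.705 without the block). Fgf7, the keratinocyte growth factor, had 56.1 and 83.1 CPM in Day4_creAF10_SGC, against 36.8 and 60.6 CPM in Day4_fl_DMSO. Fgf7's log2 change was 0.53 ± 0.08 (SE, adjusted p = 8.8e-06, and 0.531 without the block), rising within each source while the groups overlapped.

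Cell cycle genes fell modestly where they changed. Of 36 proliferation genes, all tested, 10 fell and 1 rose (0 and 1 without the block, 0 to 1 and 4 to 6 with a library left out), and no log2 change was below -0.36. Members of the replication helicase led, and Mcm6 had 88.3 and 92.7 CPM in Day4_creAF10_SGC, against 122 and 111 CPM in Day4_fl_DMSO. Mcm6's log2 change was -0.36 ± 0.07 (SE, adjusted p = 0.000384, and 0.372 without the block). Mcm4 had 72.9 and 72.6 CPM in Day4_creAF10_SGC, against 94.6 and 88.5 CPM in Day4_fl_DMSO. Mcm4's log2 change was -0.33 ± 0.07 (SE, adjusted p = 0.000723). Mki67, Top2a and Cdk1 were at -0.14 ± 0.07 (adjusted p = 0.147), -0.14 ± 0.07 (adjusted p = 0.138) and -0.11 ± 0.07 (adjusted p = 0.298), none called. Of 14 CDK inhibitors and G1 cyclins 5 fell and 1 rose (0 and 2 without the block, 0 to 1 and 2 to 4 with a library left out). The falls included inhibitors: Cdkn1b (p27) had 50.6 and 54.5 CPM in Day4_creAF10_SGC, against 91.7 and 89.4 CPM in Day4_fl_DMSO. Cdkn1b's log2 change was -0.79 ± 0.09 (SE, adjusted p = 1e-06). Cdkn2c (p18) had 8.72 and 12.3 CPM in Day4_creAF10_SGC, against 19 and 18.3 CPM in Day4_fl_DMSO. Cdkn2c's log2 change was -0.84 ± 0.14 (SE, adjusted p = 5.35e-05). Cdkn2b (p15) was at 0.43 ± 0.09 (adjusted p = 0.000573, 0.657 without the block), with the call lost without Day4_fl_DMSO replicate 1. Cdkn1a (p21) and Cdkn2a, barriers to reprogramming, were at -0.11 ± 0.07 (adjusted p = 0.282) and -0.17 ± 0.08 (adjusted p = 0.154), not called. Among p53 targets, 7.69% rose and 19.2% fell, against 12.3% and 9.25% of all genes. Of 26 p53 targets 2 rose and 5 fell (1 and 1 without the block, 2 and 2 to 4 with a library left out), with the death gene Pmaip1 (NOXA) at 0.73 ± 0.12 (adjusted p = 4.39e-05), the stress cytokine Gdf15 at 0.90 ± 0.14 (adjusted p = 2.49e-05, 0.173 without the block) and the metabolic regulator Sesn2 at -0.41 ± 0.08 (adjusted p = 0.000205). Of 13 senescence genes 3 rose and 3 fell (0 and 0 without the block, 2 to 3 and 1 to 3 with a library left out). Dpp4, a surface peptidase, had 18.6 and 9.63 CPM in Day4_creAF10_SGC, against 7.24 and 3.58 CPM in Day4_fl_DMSO. Dpp4's log2 change was 1.39 ± 0.14 (SE, adjusted p = 4.42e-08, and 0.217 without the block).

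Metabolic lists held few large changes, and several had shares of calls near the 12.3% higher and 9.25% lower of all genes. Of 30 glycolysis and hypoxia genes 9 rose and 2 fell (1 and 0 without the block, 4 to 7 and 1 to 2 with a library left out). Transporters and minor isoforms led: the lactate exporter Slc16a3 had 15.8 and 9.82 CPM in Day4_creAF10_SGC, against 5 and 3.16 CPM in Day4_fl_DMSO. Slc16a3's log2 change was 1.66 ± 0.16 (SE, adjusted p = 1.63e-08, and 0.07 without the block), and the glucose transporters Slc2a3 and Slc2a1 were at 0.77 ± 0.09 (adjusted p = 3.29e-07, 0.0787 without the block) and 0.41 ± 0.07 (adjusted p = 4.68e-05, 0.0592 without the block). Eno2, the neuronal enolase, was at 0.63 ± 0.08 (adjusted p = 1.53e-06) and the brain aldolase Aldoc at -0.93 ± 0.09 (adjusted p = 2.29e-08, 0.137 without the block). The main enzymes Gapdh, Ldha and Pgk1 were at 0.07 ± 0.09 (adjusted p = 0.666), 0.04 ± 0.07 (adjusted p = 0.774) and 0.01 ± 0.07 (adjusted p = 0.97), not called. Of 28 tested cholesterol and fatty acid genes 3 rose and 3 fell (0 and 1 without the block, 0 to 1 and 1 to 4 with a library left out), with the elongase gene Elovl6 at -0.48 ± 0.07 (adjusted p = 7.25e-06). Of 32 respiratory chain genes 4 rose and none fell (0 and 0 without the block, 1 to 3 and 0 to 2 with a library left out), each with a log2 change of at most 0.36; the share that rose, 12.5%, was near that of all genes. Of 42 cytosolic ribosomal protein genes, many of which have near-identical copies, 2 rose and none fell (0 and 0 without the block, 0 to 1 and 0 to 1 with a library left out). Of 24 unfolded protein and integrated stress genes 3 rose and 1 fell (0 and 1 without the block, 2 to 3 and 1 to 3 with a library left out), with the kinase-like gene Trib3 at 1.39 ± 0.24 (adjusted p = 0.00011, 0.327 without the block). Both abundant metallothioneins, close copies of each other, rose: Mt1 had 319.6 and 219 CPM in Day4_creAF10_SGC, against 232 and 135 CPM in Day4_fl_DMSO. Mt1's log2 change was 0.58 ± 0.09 (SE, adjusted p = 3.29e-05, and 0.616 without the block). Mt2 had 343 and 242 CPM in Day4_creAF10_SGC, against 238 and 139.8 CPM in Day4_fl_DMSO. Mt2's log2 change was 0.66 ± 0.10 (SE, adjusted p = 7.97e-05, and 0.485 without the block), with replicate 1 the higher in each group.

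Among chromatin genes, 3 of 10 tested DNA methylation genes fell and none rose (0 and 1 without the block, 0 and 1 to 2 with a library left out). Of 20 Polycomb genes 3 fell and 1 rose (0 and 0 without the block, 0 and 1 to 2 with a library left out). Polycomb shares were 5% risen and 15% fallen, against 12.3% and 9.25% of all genes. Dnmt1, the maintenance methyltransferase, had 132 and 122 CPM in Day4_creAF10_SGC, against 167 and 164 CPM in Day4_fl_DMSO. Dnmt1's log2 change was -0.38 ± 0.06 (SE, adjusted p = 7.19e-05). Kdm2b, Bmi1 and Ezh2 were at -0.40 ± 0.09 (adjusted p = 0.00179, 0.0987 without the block), -0.29 ± 0.08 (adjusted p = 0.00781, 0.351 without the block) and -0.26 ± 0.08 (adjusted p = 0.0215, 0.218 without the block), and each call was lost with 2 or 3 of the 4 libraries left out. Of 13 tested Kruppel-like factors other than Klf4, 2 rose and 2 fell (1 and 0 without the block, 1 to 2 and 1 to 2 with a library left out). Their shares were 15.4% each way, against 12.3% risen and 9.25% fallen of all genes. Klf12 had 16 and 19.6 CPM in Day4_creAF10_SGC, against 21.7 and 31.1 CPM in Day4_fl_DMSO. Klf12's log2 change was -0.56 ± 0.10 (SE, adjusted p = 0.00018, and 0.213 without the block).

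Interferon genes were called in both directions. Of 36, all tested, 7 rose and 8 fell (0 and 0 without the block, 2 to 6 and 3 to 6 with a library left out). Ifitm1, a membrane protein that blocks virus entry, had 286 and 215 CPM in Day4_creAF10_SGC, against 174 and 130.4 CPM in Day4_fl_DMSO. Ifitm1's log2 change was 0.72 ± 0.09 (SE, adjusted p = 7.66e-06, and 0.174 without the block). Gbp2, a guanylate-binding protein, had 8.06 and 10.8 CPM in Day4_creAF10_SGC, against 5.34 and 5.32 CPM in Day4_fl_DMSO. Gbp2's log2 change was 0.82 ± 0.15 (SE, adjusted p = 0.000323, and 0.0697 without the block). Ifit1 was at -0.70 ± 0.15 (adjusted p = 0.00102, 0.474 without the block). Of 14 tested antigen presentation genes 5 rose and 2 fell (1 and 0 without the block, 2 to 3 and 2 with a library left out). H2-K1, a class I heavy chain with close copies, rose at 0.72 ± 0.09 (adjusted p = 4.5e-07), while B2m, its light chain, fell at -0.37 ± 0.07 (adjusted p = 0.000387, 0.067 without the block).

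**Figure D5:**
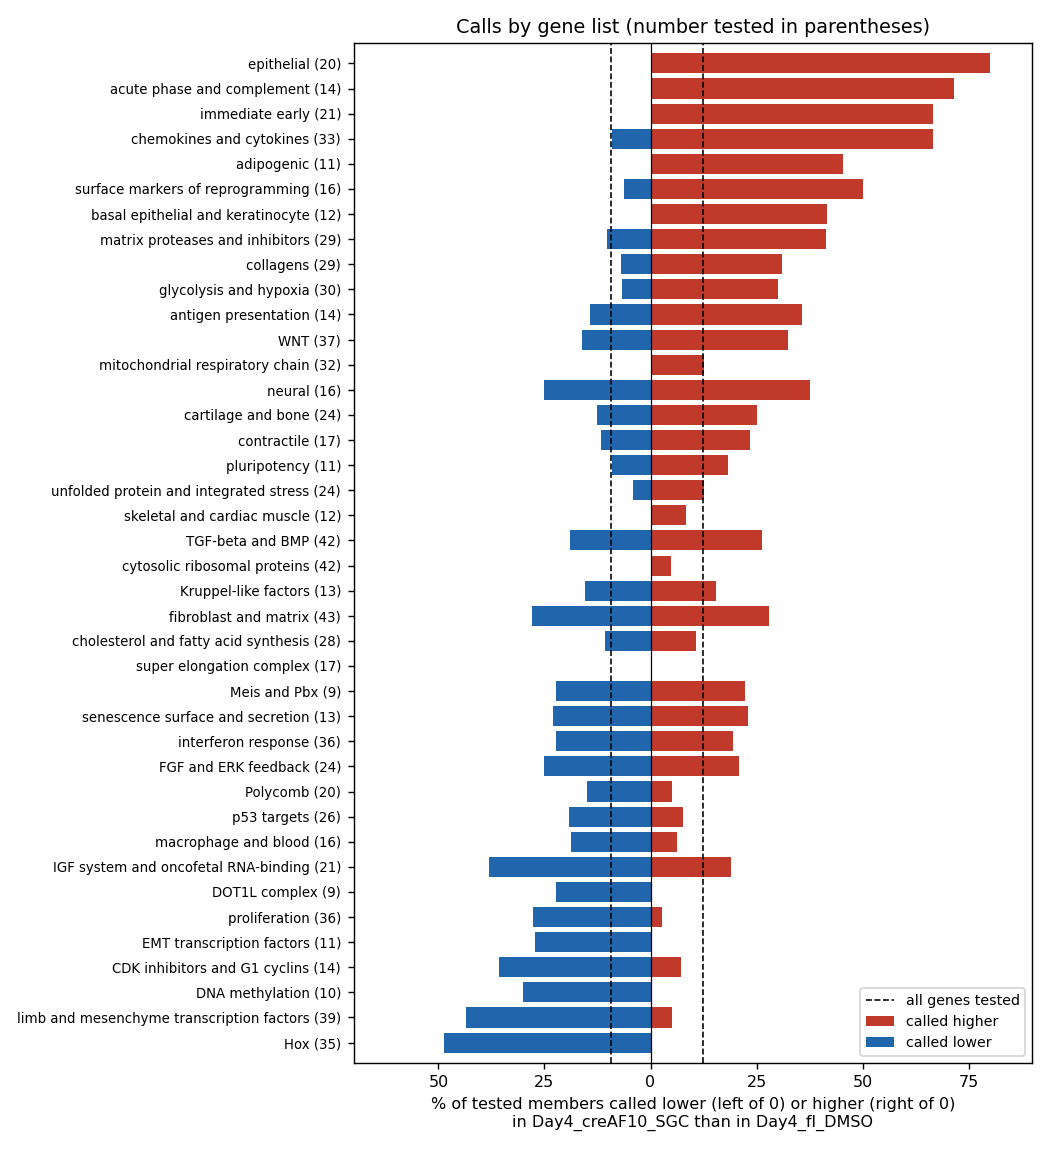
Percent of tested members of each gene list with at least 8 tested that rose (right) or fell (left) in Day4_creAF10_SGC relative to Day4_fl_DMSO, with the number tested in parentheses. The dashed lines mark all genes tested, at 12.3% and 9.25%; epithelial genes lie at the top with 80% risen, and Hox genes at the bottom with 48.6% fallen.

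Genes of other cell types were read beside these results. Shares of all genes were 12.3% risen and 9.25% fallen, where those of the tested muscle genes were 8.33% and 0%. Macrophage and blood genes summed to 66.5 and 78.9 CPM in Day4_creAF10_SGC, against 72.6 and 82.9 CPM in Day4_fl_DMSO over 16 tested genes of 20 listed, of which 1 rose and 3 fell (0 and 0 without the block, 0 to 1 and 0 to 3 with a library left out), and Ptprc, Aif1 and Cd52 did not pass the filter. Cd14, at 1.18 ± 0.26 (adjusted p = 0.00144, 0.134 without the block), was the gene that rose and lost its call without Day4_creAF10_SGC replicate 1. Lyz2, a lysozyme with a close copy, had 5.76 and 7.37 CPM in Day4_creAF10_SGC, against 14.4 and 14.1 CPM in Day4_fl_DMSO. Lyz2's log2 change was -1.12 ± 0.25 (SE, adjusted p = 0.00852, and 0.45 without the block). Emr1 (F4/80) had 0.658 and 0.504 CPM in Day4_creAF10_SGC, against 1.72 and 2.2 CPM in Day4_fl_DMSO. Emr1's log2 change was -1.70 ± 0.38 (SE, adjusted p = 0.00174, and 0.285 without the block). Both lost their calls with at least 1 library left out. Of 10 endothelial genes 4 passed the filter and 1 rose, Flt1 at 1.24 ± 0.23 (adjusted p = 0.000207, 0.536 without the block), whose call was lost without Day4_fl_DMSO replicate 1 (adjusted p = 0.0517), and Pecam1, Tie1 and Cldn5 did not pass. Of 12 tested muscle genes 1 rose, Tnnt1 at 1.42 ± 0.37 (adjusted p = 0.00582, 0.129 without the block), whose call was lost with 2 of the 4 libraries left out (up to 0.176 without Day4_fl_DMSO replicate 2) and was not made by DESeq2 (adjusted p = 0.129), and Myod1, Myog and Pax7 did not pass. Of 24 tested cartilage and bone genes 6 rose and 3 fell (1 and 0 without the block, 5 to 6 and 1 to 2 with a library left out). Col9a2, a cartilage collagen, had 5.98 and 5.98 CPM in Day4_creAF10_SGC, against 1.67 and 1.6 CPM in Day4_fl_DMSO. Col9a2's log2 change was 1.87 ± 0.20 (SE, adjusted p = 1.13e-07). The lubricin gene Prg4 was at 1.02 ± 0.11 (adjusted p = 3.48e-07, 0.344 without the block) and Col10a1 at 0.83 ± 0.09 (adjusted p = 2.56e-07, 0.386 without the block). Col2a1, the main cartilage collagen, was at -0.14 ± 0.16 (adjusted p = 0.589) and not called. Of 11 tested adipogenic genes 5 rose and none fell (1 and 0 without the block, 4 to 5 and 0 with a library left out). The fatty acid binding protein gene Fabp4 had 29.1 and 29.5 CPM in Day4_creAF10_SGC, against 10.7 and 11.6 CPM in Day4_fl_DMSO. Fabp4's log2 change was 1.39 ± 0.12 (SE, adjusted p = 2.68e-09). Fabp5 was at 0.86 ± 0.09 (adjusted p = 2.22e-08, 0.436 without the block), and Pparg at 0.22 ± 0.14 (adjusted p = 0.284) was not called. Of 16 tested neural genes 6 rose and 4 fell (2 and 0 without the block, 4 to 5 and 2 to 3 with a library left out). The small adaptor genes Bex1 and Bex4, whose sequences are close, had log2 changes of 1.92 ± 0.16 (adjusted p = 1.23e-09) and 1.89 ± 0.18 (adjusted p = 2.13e-08). What part other cell types had in the rises of chemokine and epithelial genes was not tested. The Y-linked Ddx3y stood at 73.2 CPM in Day4_creAF10_SGC replicate 1 and 95.4 CPM in Day4_fl_DMSO replicate 1, and its call as lower rests on these libraries. Ddx3y was not called without the block or by DESeq2 (adjusted p = 0.592). Its log2 change lay between -1.20 and -0.24 with a library left out.

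Set against the groups with 1 of the 2 changes, Day4_creAF10_SGC had fewer calls relative to the inhibitor alone. Relative to Day4_fl_SGC, 10 genes rose (0.0718%) and 14 fell (0.1%) in Day4_creAF10_SGC, and edgeR without the block called 0, with 251 genes at an unadjusted p under 0.05. The 14 that fell included the marker Igfbp5 at -0.43 ± 0.08 (adjusted p = 0.0112) and Mllt10 at -0.42 ± 0.08 (adjusted p = 0.0178). They also included Igf2 at -0.51 ± 0.08 (adjusted p = 0.00218) and Postn at -0.49 ± 0.08 (adjusted p = 0.008). Relative to Day4_creAF10_DMSO, 736 rose (5.28%) and 344 fell (2.47%), and 1 was called without the block (0.00718%). The 2 comparisons use the same Day4_creAF10_SGC libraries. Aox3 had 57.6 and 66 CPM in Day4_creAF10_SGC, 53.1 and 60.0 CPM in Day4_fl_SGC, 30.2 and 32.2 CPM in Day4_creAF10_DMSO and 16.6 and 17.7 CPM in Day4_fl_DMSO. Osr1 had 11.8 and 12.3, 12.3 and 14.1, 26.6 and 21.4 and 35.2 and 30.5 CPM in the same order of groups. In Aox3 and Osr1, Day4_creAF10_SGC and Day4_fl_SGC differed by less than either did from Day4_fl_DMSO. Neither gene was among those called between Day4_creAF10_SGC and Day4_fl_SGC. Esyt3 was at 16.1 and 14.2 CPM in Day4_creAF10_SGC and 12.6 and 10.3 CPM in Day4_fl_SGC, with a log2 change between them of 0.40 ± 0.13 (adjusted p = 0.321). A p that misses the threshold at this number of libraries does not show that the 2 groups were alike.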

How the data were processed

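Libraries were prepared from polyadenylated RNA with a TruSeq kit (V2), per the labels' protocols. Reads were assigned with RSEM and Bowtie on mouse build mm9, per the submitters' processing notes, without versions. The deposited tables hold RSEM expected counts for 20325 genes and the deposited TPM values, per the file headers; only the counts were tested, and TPM served to describe levels in the results tables. RSEM divides reads shared by near-identical genes among them. The kit does not keep strand, so overlapping genes on opposite strands cannot be separated. Tables were joined by transcript identifiers because a spreadsheet-like date stands in place of 25 gene names in each of 10 libraries.

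Counts were rounded to whole numbers and filtered with filterByExpr over the 6 groups, which kept 13936 genes. edgeR 4.0.16 in R 4.3.3 was run over all 12 libraries (14602536 to 22800753 counts each) with TMM scaling, a group term and the replicate number as a block within each stage (MEF, day 4), by the robust quasi-likelihood F test with Benjamini-Hochberg adjustment. A gene was called at an adjusted p under 0.05. The SE is the log2 change divided by the square root of F. The 12 libraries share the estimate of spread, with 4 residual and a median of 22.4 prior degrees of freedom, and a biological coefficient of variation of 0.0549 (0.148 without the block).

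Libraries were paired by number, although the labels do not name the sources. Deviations from group means correlated at 0.507 between the 2 groups compared, 0.413 to 0.534 over the 6 pairs of day 4 groups and 0.286 to 0.737 over all 15 pairs. Named genes were those given with the comparison, the lowest p and largest changes in each direction, and up to 5 called members per list, plus members that were not called; some genes are not reported here. The 44 lists match 1006 of 1016 entries. Members, lists and the paired fit were chosen with earlier results of these data known. Pair changes used log2 CPM with a prior count of 2. Scripts were tested on simulated data. Alternatives were no block, a block common to both stages, fewer libraries, DESeq2 1.42.0, RLE size factors, other filters and each library left out.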

Additional observations from a re-analysis of the deposited data

Results flagged for a closer look

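The test of the difference between the inhibitor's effect in deleted cells (Day4_creAF10_SGC minus Day4_creAF10_DMSO) and its effect in fl cells (Day4_fl_SGC minus Day4_fl_DMSO) passed in the paired fit for 17 of the 198 named genes. All 17 had risen in Day4_creAF10_SGC relative to Day4_fl_DMSO, and in all 17 the log2 effect of the inhibitor was smaller in deleted cells, so that the combined change was less than the sum of the 2 separate ones on the log2 scale. Of the 17, the secreted, matrix and protease genes had differences (deleted minus fl cells) of -1.19 for Htra3 (adjusted p = 7.9e-05), -1.13 for Col28a1 (adjusted p = 0.000904), -0.491 for Spp1 (adjusted p = 0.0177), -0.703 for Prg4 (adjusted p = 0.0484) and -0.582 for Mmp3 (adjusted p = 0.00631). The inflammatory and acute phase genes among the 17 had differences of -0.726 for Ptx3 (adjusted p = 0.000249), -1.1 for Lcn2 (adjusted p = 0.00431), -0.594 for Icam1 (adjusted p = 0.0118) and -0.677 for Ccl2 (adjusted p = 0.0378). The early response genes among them had differences of -0.758 for Ier5 (adjusted p = 0.000489) and -0.494 for Dusp1 (adjusted p = 0.0108). The epithelial genes among them had differences of -0.691 for Cdh1 (adjusted p = 0.031) and -0.951 for Spint1 (adjusted p = 0.0392). The others had differences of -0.841 for Wnt16 (adjusted p = 0.000661), -0.802 for Ret (adjusted p = 0.000731), -1.21 for Bex1 (adjusted p = 0.00559) and -0.739 for Aox3 (adjusted p = 0.00182). These groups are a way to order the 17 genes and were not tested as lists. Other members did not pass, such as Spint2 (adjusted p = 0.188), Krt18 (adjusted p = 0.382) and Col14a1 (adjusted p = 0.953). For Htra3, the log2 effect of the inhibitor was 0.742 in deleted cells and 1.93 in fl cells, and for Ptx3 it was 0.0972 in deleted cells and 0.823 in fl cells. Over all 13936 genes, 45 such differences were below 0 (0.323%) and 10 above 0 (0.0718%). Without the replicate block edgeR called 0 of them, with 303 at an unadjusted p under 0.05, and the adjusted p of the 17 genes was 0.694 to 1.

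The median log2 change (Day4_creAF10_SGC over Day4_fl_DMSO) of 5 gene lists had opposite signs in the 2 sources of cells, and these differences were not tested. For the list of Meis and Pbx genes it was 0.129 in replicate pair 1 and -0.042 in replicate pair 2, a difference of 0.171. For the list of interferon response genes it was -0.242 in replicate pair 1 and 0.148 in replicate pair 2, a difference of -0.39. For the list of senescence surface and secretion genes it was 0.0532 in replicate pair 1 and -0.214 in replicate pair 2, a difference of 0.267. For the list of cholesterol and fatty acid synthesis genes it was 0.0401 in replicate pair 1 and -0.0559 in replicate pair 2, a difference of 0.0959. For the list of Kruppel-like factor genes it was 0.0564 in replicate pair 1 and -0.0337 in replicate pair 2, a difference of 0.0901.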

How the results depend on the processing

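The counts of calls moved with the treatment of the 2 sources. Without the replicate block 179 genes rose and 75 fell, with 113 and 10 over 2-fold. With 1 block common to both stages 714 rose and 402 fell, with 351 and 28 over 2-fold. DESeq2 called 927 higher and 688 lower, with 317 and 25 over 2-fold, and gave no adjusted p for 270 genes. Leaving out each of the 4 libraries in turn gave 1024 to 1137 higher and 613 to 800 lower, and 409 to 466 and 38 to 45 over 2-fold. Where 1 library of a group was left, it was assumed to vary like the others. The estimate of spread differed with the block, with a biological coefficient of variation of 0.0549 in the paired fit and 0.148 without the block. Why the counts differed between settings was not tested. With the 8 day 4 libraries, the 4 libraries compared, RLE size factors, no filter on low counts (17598 genes) or a mean of at least 10 counts (13355 genes), the 4 counts stayed within 1.5 times of those reported. Genes that rose made up 57.1% of all calls, 70.5% without the block and between 52.6% and 64% under the other settings. Mllt10 kept its direction and its call under all alternatives, with log2 changes of -0.45 to -0.57. No named gene changed direction under any alternative. Of the 197 named genes called, 50 were also called without the block, 141 kept the call with each of the 4 libraries left out, and 56 lost it with at least 1 left out; DESeq2 gave no call for 22. Depth limits genes under about 1 CPM, such as Lypd1 and Mmp10, whose folds rest on few reads. The pairing changed most calls of single genes. For changes relative to Day4_fl_DMSO, an adjusted p without the block is printed only for called genes that lost their call without it. Apart from Ddx3y, called genes given with a log2 change and no such value kept their call without the block.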
